A study of Mus musculus with 59 samples.

Results

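The 31 genes described here make, sense, carry and remove cholesterol, and were measured in the prefrontal cortex of young mice given fluoxetine, lithium or vehicle. They were chosen by function, but with earlier results of these data known. They were 18 enzymes of cholesterol synthesis, 5 regulators that sense sterols, 4 genes of uptake, transport and storage, and 4 genes of efflux and turnover. All 31 were among the 18088 genes of the table, and all 31 were among the 16546 genes with a mean of at least 10 normalized counts that were tested. A normalized count is a gene's read count divided by the size factor of its library, so levels can be compared between libraries for 1 gene but not between genes of different length. The mean level of the 31 genes over all libraries ran from 394 for Ebp to 32111 for Apoe, and no member was near the limit of detection.

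The animals were C57BL/6J mice, wild type (WT) or heterozygous for Myt1l (HT), a zinc-finger transcription factor of neurons. Fluoxetine, a serotonin reuptake inhibitor, and lithium, a mood stabiliser, reached the pups through the mother's milk from postnatal day 3 to day 24, a period of 3 weeks, and tissue was taken on day 25. The doses and the content of the vehicle are not given in the sources used here. Genotype, drug and sex gave 12 groups of 5 libraries each, except WT fluoxetine females with 4, for 59 libraries in all. The labels do not say that pups of a group came from separate litters, so the p-values measure the spread between these libraries.

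Cells build cholesterol from acetyl-CoA through mevalonate, squalene and lanosterol, and most genes of this route are switched on together when membranes of the endoplasmic reticulum run low in sterol. Scap then carries the transcription factor SREBP2, made from Srebf2, to the Golgi for release, while the Insig proteins hold it back when sterol is plentiful. The brain makes nearly all of its own cholesterol, which glia and neurons use for myelin and synapses, passes it between cells on ApoE particles, and clears the surplus through the neuronal hydroxylase Cyp46a1.

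Recovered read totals ran from 25088446 to 35858365 per library. In 8 genes, 4 lower and 4 higher, the 14 libraries from fluoxetine pups other than WT males shared no range with the other 45, and none of the 31 cholesterol genes was among the 8. In those groups fluoxetine and whatever set the 14 libraries apart cannot be told apart, which leaves WT males as the only comparison of fluoxetine with vehicle made within the other 45. Myt1l itself was not lower in the libraries labelled HT: under vehicle it ran from 6189 to 8802 in HT and from 6736 to 7612 in WT (log2 difference 0.17, SE 0.06, unadjusted p = 0.00810, adjusted p = 0.414, limma). Its mean was higher in HT than in WT under each treatment, at 8030.1 against 7078 under vehicle, 8568 against 7350.0 under fluoxetine and 8706 against 7161 under lithium. The genotypes below are therefore those of the labels. None of the 7 cortical excitatory neuron markers was at 0 in any library. Genes of the olfactory bulb, a neighbouring region, varied widely: 4 of the 9, Eomes, Tbx21, S100a5 and Barhl2, were at 0 in some library, while in 10 libraries, 9 of them from fluoxetine pups, the list level stood above 1. A list level is the mean over the genes of a list of their log2 values, each standardized over the 59 libraries to a mean of 0 and an SD of 1. Striatal genes stood above that mark in 5 libraries, namely number 3 of each sex in the HT vehicle groups and number 2 of the HT males and of both genotypes of females under fluoxetine.

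The promoters of 4 synthesis genes and of the efflux gene Abca1 are printed because they show CCAAT, which most synthesis genes share and Abca1 lacks. Each is the stretch of 250 bases before a RefSeq start site (GRCm38.p6), written 5′ to 3′ on the gene's strand, and capitals mark matches to TCACNCCAC, an SREBP-type sterol element, or to CCAAT, the box bound by NF-Y, on either strand.
Hmgcs1, chr13:119690101-119690350, plus strand: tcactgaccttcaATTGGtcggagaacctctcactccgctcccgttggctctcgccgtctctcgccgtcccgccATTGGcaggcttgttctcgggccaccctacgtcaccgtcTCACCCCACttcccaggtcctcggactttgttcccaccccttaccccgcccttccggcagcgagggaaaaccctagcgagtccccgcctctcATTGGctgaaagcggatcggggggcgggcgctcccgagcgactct
Mvk, chr5:114444019-114444268, plus strand: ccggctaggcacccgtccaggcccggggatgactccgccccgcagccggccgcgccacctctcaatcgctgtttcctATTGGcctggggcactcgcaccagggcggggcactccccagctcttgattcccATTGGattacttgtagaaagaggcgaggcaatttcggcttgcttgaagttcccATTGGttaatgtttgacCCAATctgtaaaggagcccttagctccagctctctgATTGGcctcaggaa
Nsdhl, chrX:72918271-72918520, plus strand: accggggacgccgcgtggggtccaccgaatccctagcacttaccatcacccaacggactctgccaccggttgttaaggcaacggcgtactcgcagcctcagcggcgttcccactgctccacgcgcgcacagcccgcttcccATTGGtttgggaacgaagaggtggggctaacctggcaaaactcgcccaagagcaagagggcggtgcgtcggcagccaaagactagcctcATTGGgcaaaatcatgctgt
Ebp, chrX:8193513-8193762, minus strand: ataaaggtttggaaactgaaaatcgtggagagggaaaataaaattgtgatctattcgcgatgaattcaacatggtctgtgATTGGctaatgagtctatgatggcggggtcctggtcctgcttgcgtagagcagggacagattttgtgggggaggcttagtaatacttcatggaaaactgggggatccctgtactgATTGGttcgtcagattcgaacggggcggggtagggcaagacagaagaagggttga
Abca1, chr4:53159896-53160145, minus strand: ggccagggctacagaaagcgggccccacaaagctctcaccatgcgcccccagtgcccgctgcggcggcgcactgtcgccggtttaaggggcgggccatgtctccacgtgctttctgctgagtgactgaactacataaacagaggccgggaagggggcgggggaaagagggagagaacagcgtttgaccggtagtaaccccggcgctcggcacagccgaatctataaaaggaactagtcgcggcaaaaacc
RefSeq entries of 300 bases, from 250 before to 50 after a start, were found for 25 of the 31 genes. CCAAT was present at a start of 14 of the 15 synthesis genes with an entry, all but Acat2, and of 21 of all 25, against 41.1% of the 27025 genes with an entry. Of the 3 efflux and turnover genes with an entry, Cyp46a1 had it. TCACNCCAC was present at Hmgcs1 alone, against 1.44% of those genes, and it shared no base with a CCAAT match. The GC box GGGCGG was present at 14 of the 15 synthesis genes, all but Pmvk, and at 23 of all 25, Abca1 among them, against 38.2% of genes. Ebp, whose level did not pass any test below, holds 2 CCAAT matches in the stretch shown, Nsdhl holds 2 and Mvk 5. A match is a run of letters and not a measured site, and the windows cover only these 300 bases.

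Fluoxetine against vehicle in WT males left no cholesterol gene past the threshold, but the synthesis enzymes lay on 1 side. All 18 had a log2 difference below zero, from -0.24 to -0.01, with a median of -0.13 beside 0.00 for all tested genes. None of the 31 was called at an adjusted p under 0.05 (limma, Benjamini-Hochberg over all tested genes), nor was any other gene (0.00% of 16546), and edgeR and DESeq2 on the recovered reads also called 0. At an unadjusted p under 0.05 stood 5 of the 31 genes, Acat2, Stard4, Fdft1, Tm7sf2 and Msmo1, beside 800 of all tested genes. Because each library is bulk tissue, fewer cells of a type and less RNA per cell cannot be told apart here or in any comparison below.

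Acat2, the cytosolic thiolase that joins acetyl-CoA units at the start of the route, had levels of 1074, 1117, 1124, 1183 and 1197 normalized counts in fluoxetine males and 1223, 1257, 1267, 1284 and 1408 in vehicle males, given here from lowest to highest. The 5 fluoxetine libraries all lay below the 5 vehicle libraries, a separation that 0.580% of tested genes showed in this direction, and the log2 difference was -0.18 (SE 0.07, adjusted p = 0.942). Fdft1, the squalene synthase that commits the route to sterols, had levels of 1813, 1979.5, 2104, 2148 and 2301 under fluoxetine and 2275, 2281, 2288, 2319 and 2545 under vehicle. Those groups overlapped in 1 fluoxetine library only, and the log2 difference was -0.18 (SE 0.09, adjusted p = 0.942). Tm7sf2, a sterol reductase, had levels of 454, 484, 490.1, 517 and 525 under fluoxetine and 507, 517, 571, 574 and 629 under vehicle, with -0.18 (SE 0.08, adjusted p = 0.942); the groups overlapped. Msmo1, the oxidase that removes methyl groups from the sterol ring and a gene added here after its values were seen, had the lowest difference of the 31 in WT males. Its levels were 1946, 1987, 2141, 2147 and 2396 under fluoxetine and 2373, 2400.1, 2462, 2552 and 2773 under vehicle, with -0.24 (SE 0.12, adjusted p = 0.942). Only the highest fluoxetine library reached the vehicle range. In the GENCODE annotation of GRCm38 the Acat2 gene lies at chr17:12942890-12960747, minus strand, Fdft1 at chr14:63145150-63179578, minus strand and Msmo1 at chr8:64718139-64733792, minus strand.

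**Figure D1:**
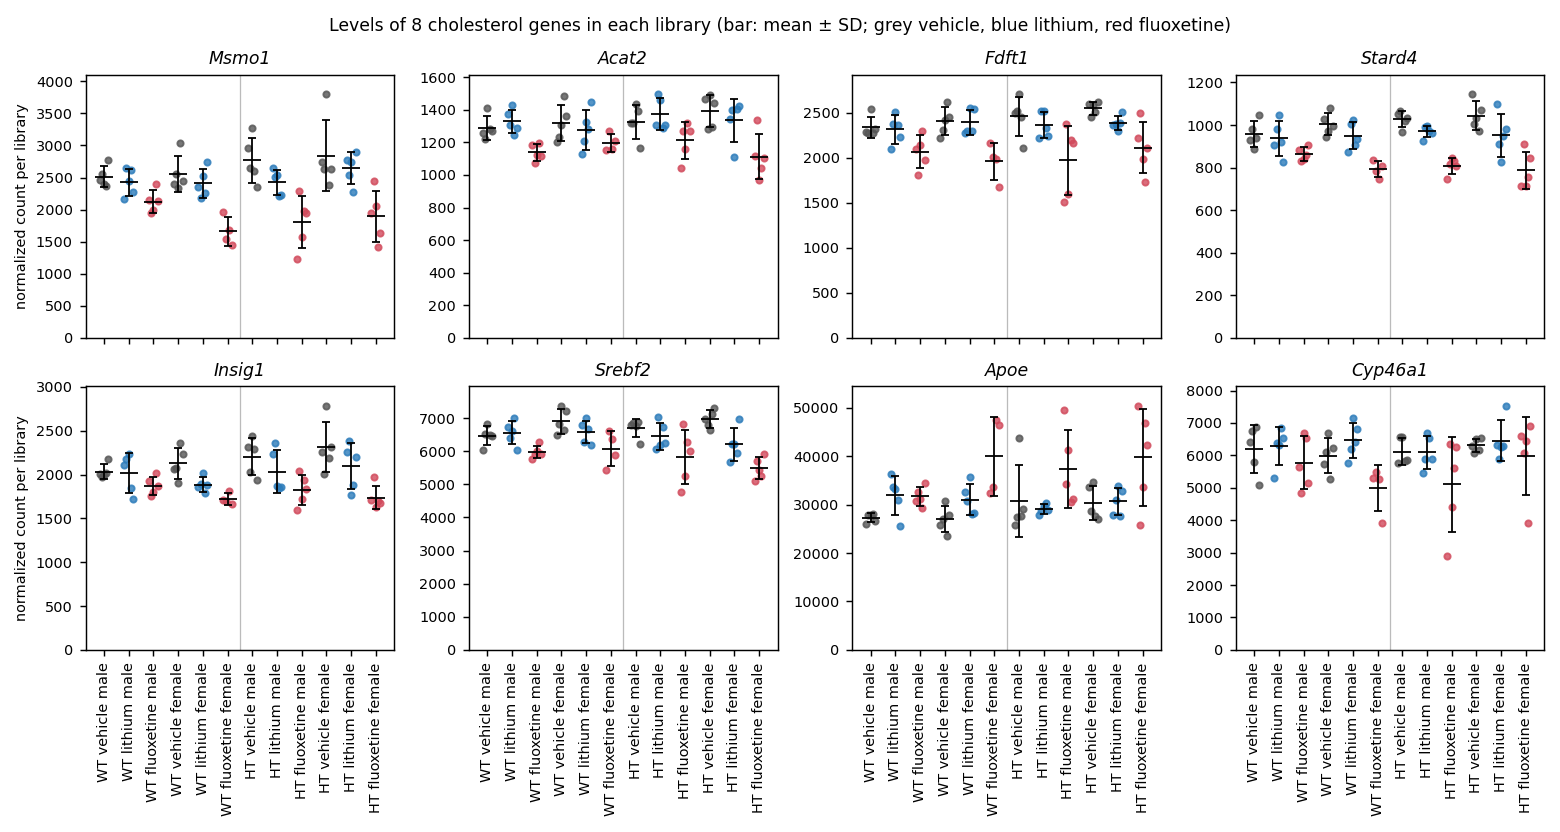
Levels of 8 cholesterol genes (vertical axes, normalized counts per library, starting at 0) in the 12 groups, with grey points for vehicle, blue for lithium and red for fluoxetine, and bars for the mean ± SD of 5 libraries (4 in WT fluoxetine females). All 5 red points of WT males lie below the WT male vehicle mean for Msmo1, Stard4 and Insig1, and those of WT females lie below every WT female vehicle point for these genes. Red points of Apoe reach 50376 against at most 43795 under vehicle.

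Among the regulators in WT males, Srebf2 had levels of 5773, 5904, 5917, 5992 and 6291 under fluoxetine and 6035, 6468, 6499, 6519 and 6818 under vehicle, with a log2 difference of -0.11 (SE 0.06, adjusted p = 0.942). Only the lowest vehicle library fell within the fluoxetine range. Insig1, itself a sterol-responsive gene, had levels of 1754, 1806, 1868, 1927 and 2016 under fluoxetine and 1970.3, 1995, 2008, 2013 and 2176 under vehicle, with -0.12 (SE 0.08, adjusted p = 0.944). Its sister Insig2, which is controlled by other signals, lay on the other side of zero, with 1081, 1196, 1204, 1231 and 1304 under fluoxetine and 1047, 1089, 1123, 1151 and 1320.3 under vehicle and a difference of 0.07. Srebf1, which drives mainly fatty acid genes, stood at 0.08 and the SREBP escort Scap at -0.07. None of the 5 regulators had an unadjusted p under 0.05, and their median was -0.07.

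Of the transport genes, Stard4, which shuttles cholesterol between membranes and is an SREBP2 target, had levels of 828.8, 840.1, 857, 884 and 906 under fluoxetine in WT males and 886, 930.1, 941, 979 and 1047 under vehicle. The groups overlapped in 1 fluoxetine library, and the log2 difference was -0.15 (SE 0.06, adjusted p = 0.942). Npc2, which hands cholesterol out of lysosomes together with Npc1, had levels of 1259.6, 1268, 1303, 1365 and 1451 under fluoxetine and 1209, 1260.5, 1304, 1304 and 1395 under vehicle. Soat1, which esterifies cholesterol for storage, had levels of 733, 777, 818, 845 and 936 under fluoxetine and 755, 769, 798, 826 and 885 under vehicle. Both groups overlapped for both genes, with differences of 0.04 for Npc2 and 0.02 for Soat1, and Npc1 stood at -0.01.

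Apoe, the main lipid carrier between brain cells, was the member with the highest difference in WT males. Its levels were 29296, 30781, 31158, 32683 and 34512 under fluoxetine and 26059.6, 26638, 27879, 27943 and 28159.6 under vehicle, so that all 5 fluoxetine libraries lay above all 5 vehicle libraries, as they did for 0.598% of tested genes. The log2 difference of 0.21 (SE 0.13, adjusted p = 0.942) did not pass. Abcg1, an exporter of cholesterol to lipoproteins, had levels of 1078, 1169, 1199, 1291 and 1306 under fluoxetine and 1239.9, 1261, 1278, 1381 and 1512 under vehicle, with -0.14. Abca1, which loads lipid on ApoE, had levels of 909.6, 1045, 1235, 1459.8 and 1668 under fluoxetine and 992, 1059, 1110.3, 1179.9 and 1248 under vehicle, with 0.15; fluoxetine libraries held both the lowest and the highest values. Cyp46a1, which turns surplus cholesterol in neurons into an oxysterol, had levels of 4855, 5141, 5638, 6522 and 6704 under fluoxetine and 5096, 5808, 6414, 6741 and 6887 under vehicle, with -0.10. The groups of Abcg1, Abca1 and Cyp46a1 overlapped.

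Olfactory bulb genes moved with fluoxetine in WT males too, without a call: 0 of 9 were called, their median difference was 2.12, and their summed level was 1655 to 11022 under fluoxetine against 263 to 4892 under vehicle. With the bulb and striatal lists as covariates 17 of the 18 synthesis enzymes stayed below zero, and 17 did so without the 10 libraries high in bulb genes. Those 10 include WT fluoxetine males 2 and 5, with bulb list levels of 1.44 and 1.32. Leaving out 1 library at a time left 17 or 18 below zero. These counts give the side and not the size of the differences. The enzymes also varied together within groups (median Pearson r 0.50 between pairs), so their signs are not independent. Cortical excitatory neuron markers stood at a median of -0.14 and microglial markers at -0.12, with 0 of 7 and 0 of 12 called.

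The lithium libraries of WT males gave a further reference for the same 5 fluoxetine libraries. Against them 17 of the 18 synthesis enzymes lay below zero, with a median of -0.13 beside 0.00 for all genes, and 0 of the 31 genes were called (0.0544% of tested genes were). Acat2 had levels of 1247, 1291, 1308, 1372 and 1429.8 under lithium, again all above the fluoxetine libraries, as in 1.62% of tested genes. The comparison shares its fluoxetine libraries with the one against vehicle, so the values are set side by side and are not independent. Lithium against vehicle in WT males put 9 synthesis enzymes on each side of zero, with a median of 0.00.

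**Figure D2:**
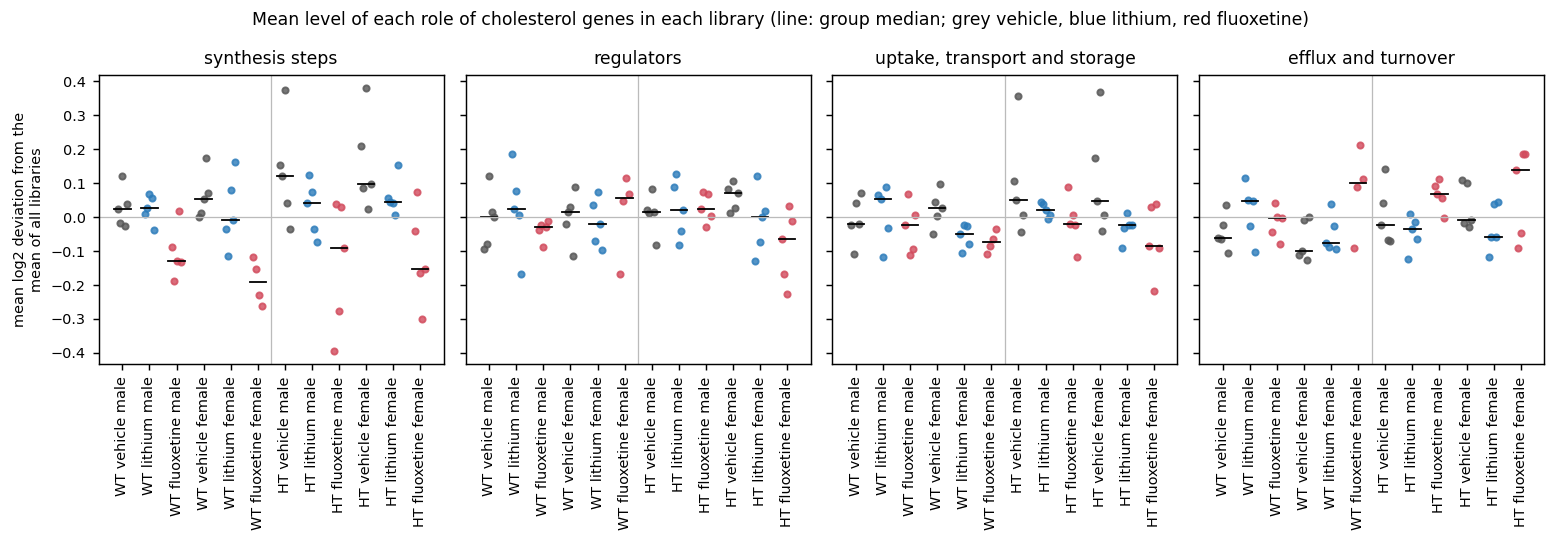
Mean level of each role in each library (vertical axes, mean over the role's genes of the log2 deviation from the mean of all 59 libraries), with lines for group medians and grey, blue and red points for vehicle, lithium and fluoxetine. The median of the synthesis enzymes is below zero in all 4 fluoxetine groups, from -0.19 in WT females to -0.09 in HT males, and the highest points belong to HT vehicle female 3 and HT vehicle male 3 at 0.38 and 0.37.

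Fluoxetine against vehicle in WT females, where the fluoxetine libraries belong to the 14 that stood apart, called 14 cholesterol genes lower and 1 higher. In this comparison 19.8% of all tested genes were called, with 8.79% of all tested genes lower and 11.0% higher. Synthesis enzymes made up 11 of the 14: Hmgcs1, Idi1, Fdps, Fdft1, Sqle, Cyp51, Tm7sf2, Msmo1, Nsdhl, Hsd17b7 and Sc5d fell, and the median over all 18 was -0.29 beside -0.01 for all genes. The deepest were Msmo1 at -0.62 (SE 0.13, adjusted p = 0.00110), Hsd17b7, which acts beside it in stripping the ring's methyl groups, at -0.51 (SE 0.10, adjusted p = 0.000620), and Hmgcs1, which makes HMG-CoA, at -0.44 (SE 0.11, adjusted p = 0.00582). Msmo1 had levels of 1452, 1548, 1684 and 1960.1 under fluoxetine and 2338, 2404, 2443, 2551 and 3036 under vehicle, with no overlap. Fdft1 fell from 2226, 2312, 2425, 2455 and 2626 under vehicle to 1682, 1989.9, 2014 and 2169, a difference of -0.30 (SE 0.09, adjusted p = 0.0166), and again the groups did not overlap. Acat2 did not pass in females, with 1151, 1157, 1209 and 1269 under fluoxetine, 1202, 1235, 1309.5, 1359 and 1484 under vehicle and a difference of -0.14.

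The enzymes that did not pass in WT females were Mvk at -0.22, Pmvk at 0.14, Mvd at -0.11, Lss at -0.07, Ebp at 0.04, Dhcr7 at -0.05 and Acat2. Insig1 fell, with levels of 1666, 1697, 1706 and 1812 under fluoxetine and 1906, 2066, 2074, 2232 and 2359 under vehicle, no overlap, and a difference of -0.30 (SE 0.09, adjusted p = 0.0117). Srebf2 fell by less, with 5429.8, 5882, 6369.5 and 6608 under fluoxetine and 6475, 6632, 6809, 7229 and 7366 under vehicle; the groups overlapped, and the difference was -0.19 (SE 0.07, adjusted p = 0.0450). Stard4 fell without overlap, from 943, 971, 996, 1029 and 1078 under vehicle to 747, 784, 806 and 836, with -0.34 (SE 0.07, adjusted p = 0.000969). Apoe rose, with 32413, 33558, 46459.7 and 47487 under fluoxetine and 23457, 25764, 26969, 27853 and 30754 under vehicle, no overlap, and a difference of 0.55 (SE 0.14, adjusted p = 0.00554). Abca1 did not pass at 0.46 (SE 0.17, adjusted p = 0.0520), and passed with edgeR (0.48, adjusted p = 0.0454) and with DESeq2 (0.48, adjusted p = 0.0342); its 4 fluoxetine libraries, at 1185, 1493, 1513 and 2045, all lay above the vehicle libraries, at 1030.4, 1057, 1138, 1174 and 1179. Without overlap stood 13 of the 31 genes lower and 3 higher, against 9.85% and 10.7% of all tested genes.

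In WT females all 9 olfactory bulb markers rose, from a summed level of 468 to 4023 under vehicle to 6729.6 to 21091 under fluoxetine. Of the microglial markers 6 of 12 fell, with sums of 10591 to 11480.3 under fluoxetine and 12963 to 14029 under vehicle, and 1 of the 7 cortical excitatory neuron markers fell, with sums of 96067 to 136671 and 148527 to 176776. With the bulb and striatal lists as covariates 3 cholesterol genes were called lower and 0 higher, where 105 genes of the whole table were called. Msmo1, Fdps and Hsd17b7 were the 3. Of the calls lost there, Insig1 stood at -0.29, Stard4 at -0.31 (adjusted p = 0.0529, limma) and Srebf2 at -0.17, near their values without the covariates, while Hmgcs1 stood at -0.28, Fdft1 at -0.16 and Apoe at 0.34. Without the 10 libraries high in bulb genes, which leaves 1 WT fluoxetine female assumed to vary like the other groups, 0 were called and 16 genes of the whole table were. Leaving out WT fluoxetine female 4 brought the lower calls to 8 and all calls to 1026, and leaving out female 3 brought all calls to 1976.

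Fluoxetine against vehicle in HT pups, sexes averaged, again in libraries that stood apart, called 20 cholesterol genes lower and 1 higher, where 29.2% of tested genes were called, 14.6% of all tested genes lower and 14.6% higher. Of the 18 synthesis enzymes 16 fell, all but Pmvk at -0.02 and Ebp at -0.04, with a median of -0.27 beside -0.01 for all genes. Msmo1 was the deepest at -0.61 (SE 0.08, adjusted p = 9.51e-07), with levels of 1238 to 2448 with a median of 1954 in the 10 fluoxetine libraries and 2358 to 3801 with a median of 2638 in the 10 vehicle libraries. Next came Hmgcs1 at -0.40 (SE 0.08, adjusted p = 0.000107), with 6552 to 13319 with a median of 9946 under fluoxetine and 10469 to 15126 with a median of 12362 under vehicle. Hsd17b7 stood at -0.37, the isomerase Idi1 at -0.36, and Fdps, which makes the farnesyl unit of sterols and isoprenoids, at -0.35. Nsdhl, which works with Msmo1 and Hsd17b7, ran from 501 to 682 with a median of 632 under fluoxetine and from 682 to 859.6 with a median of 777 under vehicle. The highest fluoxetine library lay just below the lowest vehicle library, without overlap, as for 0.338% of tested genes, and the difference was -0.34 (SE 0.06, adjusted p = 3.83e-05). Acat2 ran from 966 to 1334 with a median of 1136 under fluoxetine and from 1165 to 1491 with a median of 1355 under vehicle, with -0.23 (SE 0.05, adjusted p = 0.000874).

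Stard4 was the other gene whose HT groups did not overlap, with 711 to 910.1 with a median of 813 under fluoxetine and 969 to 1146 with a median of 1035 under vehicle, and it had the smallest adjusted p of the 31, at -0.38 (SE 0.04, adjusted p = 2.61e-08). Insig1 fell, from 1933 to 2782 with a median of 2276 under vehicle to 1599 to 2036 with a median of 1714 under fluoxetine, with -0.34 (SE 0.06, adjusted p = 3.63e-05). Srebf2 fell, from 6219.6 to 7311 with a median of 6821 under vehicle to 4764 to 6816 with a median of 5574, with -0.28 (SE 0.05, adjusted p = 1.83e-05). Npc2 fell, at -0.21 (SE 0.06, adjusted p = 0.0135), and Npc1 and Soat1 did not pass at 0.05 and -0.03. The other regulators, Srebf1 at 0.19, Scap at 0.02 and Insig2 at 0.09, lay above zero and did not pass. Apoe rose, from 25755 to 43795 with a median of 28144 under vehicle to 25858 to 50376 with a median of 37798, with 0.32 (SE 0.09, adjusted p = 0.00810) and much overlap. Cyp46a1 did not pass at -0.21 (SE 0.09, adjusted p = 0.0805): its fluoxetine libraries ran from 2886 to 6901 with a median of 6162, and its vehicle libraries from 5757 to 6581 with a median of 6219.9. Abca1 stood at 0.22 (SE 0.11, adjusted p = 0.151) and Abcg1 at -0.12 (SE 0.06, adjusted p = 0.160).

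By sex, fluoxetine in HT females called 14 genes lower and 0 higher, where 6.85% of tested genes were called, 3.63% lower and 3.22% higher. In the same way fluoxetine in HT males called 13 lower and 0 higher, where 13.4% of tested genes were called, 6.76% lower and 6.67% higher. In HT pups all 9 bulb markers rose, with sums of 258 to 27703 under fluoxetine against 309 to 2696 under vehicle, 9 of 12 microglial markers fell, with sums of 10219 to 13398 against 12499.8 to 18582, and 5 of 12 astrocyte markers fell, with sums of 159664 to 202777 against 186673 to 284382. HT vehicle female 3 and male 3 had the highest microglia and astrocyte levels of all 59 libraries, and their part in these falls was not tested. HT fluoxetine females 2 and 3 had bulb list levels of -0.76 and -1.15, the first inside and the second just below the vehicle range of -1.13 to 0.30. Their mean synthesis deviations were 0.07 and -0.16, beside -0.04 to 0.38 in the 10 HT vehicle libraries, so that female 2, which is also high in striatal genes, lay inside that range and female 3 below it. Female 3 differed in other lists too. Its myelinating oligodendrocyte level was -1.57, beside -0.54 to 3.07 in the HT vehicle libraries, and its meningeal fibroblast level was 1.73, beside -1.30 to 1.27. The 3 HT fluoxetine libraries with the lowest synthesis deviations were male 1 at -0.39, female 4 at -0.30 and male 3 at -0.28. They had the highest olfactory bulb levels of the 10, at 2.10, 1.93 and 1.68. They also had the lowest cortical excitatory neuron levels of the 10, at -4.08, -2.05 and -1.65. Of those neuron markers 3 of 7 fell, with sums of 72333 to 204149 against 162693 to 197660.0, and 1 of 5 red cell markers rose, with sums of 7982 to 16932 against 6559 to 17363. The part of the neuron, myelinating oligodendrocyte, meningeal fibroblast and red cell markers in the cholesterol values was not tested. With the bulb and striatal lists as covariates 16 genes were still called lower and 0 higher, where 1346 genes of the whole table were called. Without the 10 libraries high in bulb genes 11 were called lower and 0 higher, where 1607 genes of the whole table were called. The 11 left were Hmgcs1, Idi1, Fdps, Fdft1, Msmo1, Nsdhl, Hsd17b7, Srebf2, Insig1, Stard4 and Npc2. Without the 5 libraries high in striatal genes 17 were called lower and 3, Srebf1, Abca1 and Apoe, higher. The calls over the whole table in that fit are not given here, so these counts cannot be set beside those of all genes. Leaving out 1 library at a time kept 18 of the 21 calls throughout.

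**Figure D3:**
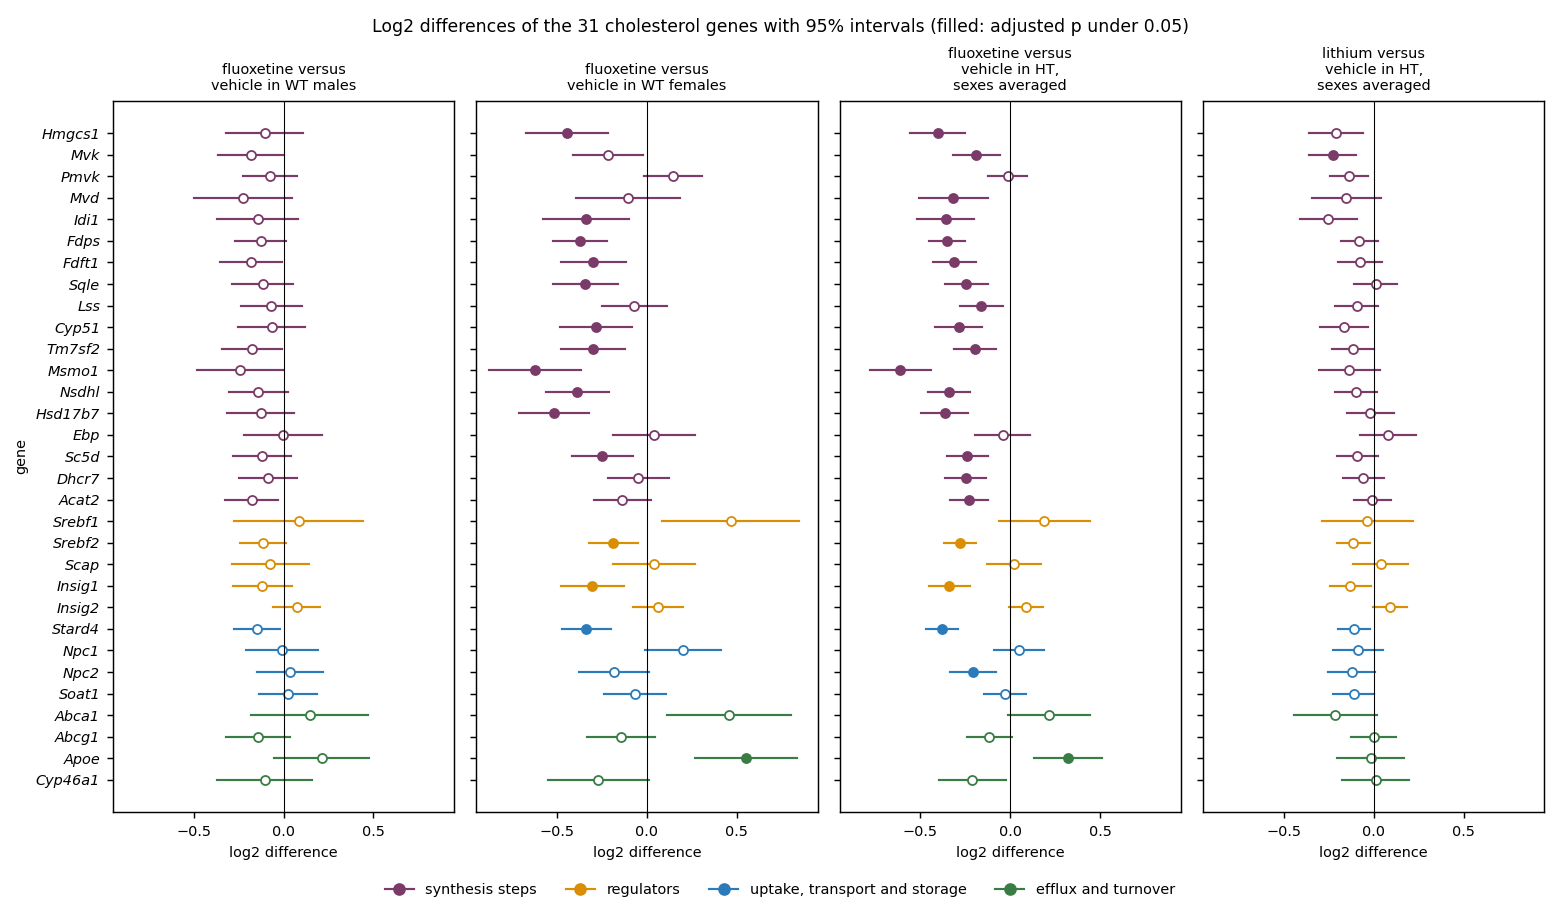
Log2 difference of each of the 31 genes (rows, by role) with its 95% interval in fluoxetine against vehicle in WT males, WT females and HT pups and in lithium against vehicle in HT pups; filled points passed at an adjusted p under 0.05. The 18 synthesis enzymes lie left of zero in WT males without a filled point, 11 are filled in WT females and 16 in HT pups, and Mvk alone is filled under lithium.

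No cholesterol gene passed a test of the difference between fluoxetine effects. WT females minus WT males called 0 of the 31 (0.0846% of tested genes were called), with 6 at an unadjusted p under 0.05 and the largest gap at Hsd17b7, -0.39 (SE 0.13, adjusted p = 0.261), with a 95% interval from -0.65 to -0.12. For Msmo1 the gap was -0.38, with an interval from -0.73 to -0.03. HT females minus WT females called 0 (0.00%), with a median of -0.06 over the 31 and 1 at an unadjusted p under 0.05. So the counts of 0 and 14 lower genes in WT males and WT females do not show that the effects differed, and the intervals leave room for gaps of the size of the effects themselves. The effect in HT pups, with 20 lower genes, was not tested against that in WT males, so those counts do not show a difference either.

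Lithium against vehicle called 0 cholesterol genes in WT pups (1.61% of tested genes were called, while edgeR on the recovered reads called 255, or 1.54%, and DESeq2 402, or 2.43%, with 0 members each), and 2 members, Idi1 and Apoe, had an unadjusted p under 0.05. The synthesis enzymes had a median of -0.01, with Idi1 lowest at -0.19 (SE 0.08, adjusted p = 0.232), and Apoe stood at 0.21 (SE 0.09, adjusted p = 0.280). In HT pups lithium called 1 gene lower, Mvk, and 0 higher, where 2.84% of tested genes were called, 1.57% lower and 1.27% higher. Mvk is the kinase that phosphorylates mevalonate. It ran from 439 to 534 with a median of 509 under lithium and from 478 to 753 with a median of 548 under vehicle, so that all 10 lithium libraries lay below the vehicle mean although the groups overlapped, and the difference was -0.23 (SE 0.06, adjusted p = 0.0410). The call was lost on leaving out any 1 of 12 libraries, without the 5 libraries high in striatal genes (-0.15, adjusted p = 0.276, limma), with the compared groups fitted alone (adjusted p = 0.134) and with quantile scaling (-0.22, adjusted p = 0.0599). Of the other enzymes, Idi1 stood at -0.25 (SE 0.08, adjusted p = 0.0680) and Hmgcs1 at -0.21 (SE 0.08, adjusted p = 0.119), and 16 of the 18 lay below zero with a median of -0.10. The vehicle side holds HT vehicle female 3 and male 3, both striatal-high, with mean synthesis deviations of 0.38 and 0.37. They were also the highest of all 59 libraries in the microglia, astrocyte and endothelial and mural lists. The part of these 2 libraries in the median and in the marker calls that follow was not tested. Beside the enzymes, 4 of 12 microglial, 4 of 10 endothelial and mural and 2 of 12 astrocyte markers fell under lithium in HT pups, with microglial sums of 11297 to 15164 against 12499.8 to 18582, and the part of these markers in the Mvk value was not tested. The test of the difference between the lithium effects in HT and WT called 0 of the 31 (0.00% of tested genes, with 1 member at an unadjusted p under 0.05), and Mvk stood at -0.15, with a 95% interval from -0.34 to 0.03.

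HT against WT under vehicle called 0 of the 31 genes and 0.00% of all tested genes, while 1618 genes stood at an unadjusted p under 0.05. On recovered reads 0 genes were called by edgeR and 4, or 0.0242%, by DESeq2, none of them a member. Above zero lay 27 of the 31, among them 17 of the 18 synthesis enzymes, with a median of 0.09 beside 0.00 for all genes. Cyp51, the demethylase of lanosterol, had the smallest p, with 0.18 (SE 0.07, adjusted p = 0.414), followed by Pmvk, at 0.13, and Mvd, at 0.22. Female 3 and male 3 of the HT vehicle groups, both striatal-high, had the highest synthesis levels of all 59, and HT vehicle male 3 had Apoe at 43795, where the other 4 of its group had at most 29171. They were also the highest of all 59 in the myelinating oligodendrocyte (3.07 and 2.66), oligodendrocyte precursor (2.84 and 3.01) and astrocyte (2.31 and 2.58) lists. The same held for the microglia (2.37 and 2.73) and endothelial and mural (2.71 and 2.78) lists. Their cortical excitatory neuron levels were -0.18 and 0.11. Sums of the striatal list ran from 10317 to 18464 in HT and 9821 to 12189.6 in WT vehicle libraries. The part of the genes of all these lists in the genotype values was not tested. Without the striatal-high libraries 0 members were again called. As 0 were called with them, that count cannot show how far the values moved.

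Sex left no cholesterol gene past the threshold: females against males under vehicle called 0 of the 31 (0.0846% of tested genes, limma) and 0 had an unadjusted p under 0.05. The highest difference was that of Dhcr7, the last reductase of the route, at 0.10, and 15 of the 18 synthesis enzymes lay above zero, with a median of 0.04. The libraries labelled HT against WT called 0 of the 31 under fluoxetine in females (0.00%), with Tm7sf2 at 0.22 (SE 0.09, adjusted p = 0.575) and Srebf2 at -0.15 (SE 0.07, adjusted p = 0.597) the 2 at an unadjusted p under 0.05. Under lithium HT against WT called 0 (0.00604%) with 0 at an unadjusted p under 0.05, and the synthesis enzymes had a median of 0.02.

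Genes around the pathway came from 8 further lists of 4 to 11 genes. In WT males under fluoxetine none of the 56 was called. Among the smallest p-values of each list there were those of Erg28 (-0.09) among other synthesis enzymes, and of Fnta (0.16) and Pdss2 (-0.10) among the isoprenoid branches. They included Erlin2 (0.06) and Mbtps2 (0.07) of SREBP processing, Elovl6 (0.22) and Acss2 (-0.14) of the fatty acid targets, and Lrp8 (0.23) and Mylip (-0.11) of lipoprotein uptake. In the last 3 lists they were those of Abca7 (-0.14) and Clu (-0.12) of lipid export, Cyp39a1 (0.68) and Ch25h (0.43) of oxysterol metabolism, and Gramd1b (0.07) and Gramd1c (0.18) of sterol transfer.

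In HT pups under fluoxetine the scaffold Erg28 fell, at -0.18, as did Tmem97, a sterol-responsive binder of Npc1, at -0.32 (SE 0.06, adjusted p = 0.000190). Where 29.2% of all tested genes were called and 14.6% were lower, 5 of the 11 fatty acid targets fell, the desaturases Scd1 (-0.43), Scd2 (-0.22) and Fads1 (-0.21), the carboxylase Acaca (-0.16) and the acetyl-CoA synthetase Acss2 (-0.21), while the elongase Elovl6 rose (0.19). Lrp8, an ApoE receptor of neurons, rose by 0.30 (SE 0.06, adjusted p = 0.000445) and was 1 of 8 uptake genes called, a share below that of all tested genes. Pltp (-0.28), Clu (-0.28), Nus1 (-0.17) and the oxysterol hydroxylase Cyp7b1 (-0.17) fell. In WT females 19.8% of all tested genes were called, 8.79% of all tested genes lower and 11.0% higher. There Nus1 (-0.38), Erlin1 (-0.27), Lpl (-0.50) and Cyp7b1 (-0.28) fell. Elovl6 (0.32), Lrp8 (0.39), Cyp27a1 (0.87) and Cyp39a1 (1.47) rose, without a call among the other 10 fatty acid targets. Lithium called Cyp7b1 lower (-0.23) and Ch25h, the cholesterol hydroxylase of macrophages, higher (0.89) in WT pups, where 1.61% of all tested genes were called. In HT pups, where 2.84% were called, it called Gramd1b, which moves cholesterol from the plasma membrane, higher (0.17).

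Within groups the synthesis enzymes varied together. With each library expressed as its deviation from its group mean on the log2 scale, the 153 pairs of synthesis enzymes had a median Pearson r of 0.50 over 59 libraries, from 0.10 to 0.87. Against the mean of the other enzymes, Cyp51 had an r of 0.92, Hmgcs1 0.85, Fdps 0.84 and Msmo1 0.84, and Lss had the lowest at 0.45. Of the genes outside synthesis, Insig1 followed most closely at 0.63, then Cyp46a1 at 0.54, Npc2 at 0.42 and Srebf2 at 0.42, while Stard4 was at 0.24. Abca1 at -0.42, Srebf1 at -0.32 and Apoe at -0.16 ran the other way. These values describe the libraries and carry no test, since all genes of a library share its depth, scaling and tissue piece. The mean synthesis level also went with the striatal list (r = 0.75), the oligodendrocyte precursor list (0.61), the myelinating oligodendrocyte list (0.52) the cortical excitatory neuron list (0.47) and the microglia list (0.43). It went against the olfactory bulb list (-0.54) and the meningeal fibroblast list (-0.53). The other 3 lists were at 0.28 for endothelial and mural, 0.21 for astrocyte and -0.22 for red cell genes.

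**Figure D4:**
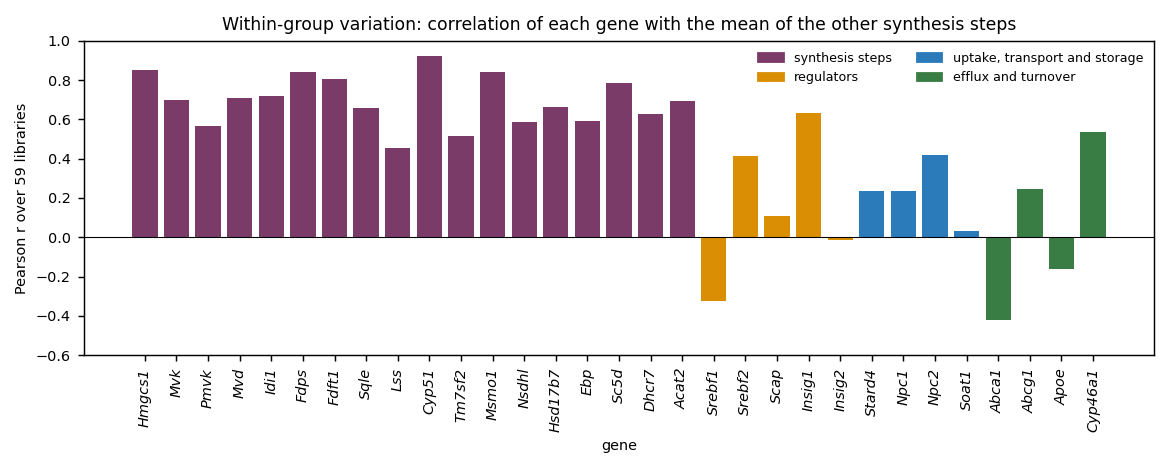
Pearson r (vertical axis) between each gene's deviation from its group mean and the mean deviation of the other synthesis enzymes over 59 libraries, with bars coloured by role. All 18 synthesis enzymes lie between 0.45 and 0.92, Insig1 is the highest of the others at 0.63, and Abca1 the lowest at -0.42.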

How the data were processed

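Polyadenylated RNA from the prefrontal cortex of 59 mice was sequenced with a stranded kit, per the labels' protocols; whether counting used strand is not given in the sources used here. The submitters' processing notes name Salmon 0.11.2, DESeq2 1.19.11, R 3.6.0 and GRCm38. The deposited values are a signal, namely gene counts that the authors divided by a size factor per library, as the whole multiples in the values show. Size factors were 0.850 to 1.203, and recovered reads 25088446 to 35858365 per library, so depth differed little. The design had been written for counts, and the test for normalized values was used instead. Genes were matched by identifier to symbols, 18077 of 18088, with 11 unmatched.

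Genes averaging 10 or more (16546) were fitted in limma 3.58.1 (R 4.3.3) on log2(normalized count + 1), with 12 group means, a trended robust variance and Benjamini-Hochberg adjustment over all genes at 0.05, so differences of low genes are understated. Tests on recovered reads with edgeR 4.0.16 and DESeq2 1.42.0, other filters, pseudocounts, scaling, covariates, a replicate block and left-out libraries were alternatives. Calculations were tested on simulated data. The members and lists were chosen with earlier results of these data known. Values are printed for the 3 members of each role with the smallest p in WT males, for Srebf2, Insig1, Apoe and Cyp46a1, and, chosen after their values were seen, for Msmo1, Mvk, Nsdhl and Hmgcs1; in each further list the 2 smallest p-values in WT males and every called gene are named, apart from some results that are not reported here. Replicate numbers did not pair the libraries.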

Additional observations from a re-analysis of the deposited data

Results flagged for a closer look

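Within the 12 groups, the levels of 15 cholesterol genes were searched for a library whose gap to its nearest neighbour took up most of the group's range (Dixon's 95% limit). Of 180 group and gene pairs 17 stood out, where chance marks about 1 in 20. HT vehicle male 3, a library high in striatal genes, was the highest of its group for Mvk at 740.3, Npc2 at 2085 and Apoe at 43795. HT vehicle female 3, also high in striatal genes, was the highest for Msmo1 at 3801 and the lowest for Abcg1 at 1159. HT fluoxetine female 2, high in striatal genes too, was the highest for Insig1 at 1966.

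HT fluoxetine female 4 and WT fluoxetine female 4, both high in olfactory bulb genes, were the lowest of their groups for Cyp46a1 at 3917 and 3926, and HT fluoxetine female 4 was the highest for Abca1 at 2206. The part of the striatal and bulb genes in these levels was not tested. Fdft1 was highest in WT vehicle male 3 at 2545, Insig1 in WT vehicle male 5 at 2176, Mvk in WT fluoxetine male 4 at 553, Abcg1 in HT lithium male 2 at 1542 and Cyp46a1 in HT lithium female 5 at 7525. Acat2 was lowest in HT lithium female 3 at 1108, Mvk in WT lithium male 5 at 442 and Srebf2 in HT vehicle male 5 at 6219.6. All values are normalized counts.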

How the results depend on the processing

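No called value reversed its sign under any alternative that was run. In WT males 0 cholesterol genes were called throughout, and 3 genes of the whole table were called with the compared groups fitted alone. In WT females the genes called higher numbered 2 with edgeR, with DESeq2 and with a mean of at least 200, 3 with the compared groups alone, and 0 with the bulb and striatal lists as covariates or without the 10 libraries high in bulb genes. The genes called lower numbered 3 with the covariates and 0 without those libraries, with 105 and 16 genes called over the whole table. In WT females edgeR called 3280 genes over the whole table and DESeq2 called 3539. Totals with a mean of at least 200 and with the compared groups alone are not given here. In HT pups under fluoxetine the counts were 0 higher with the compared groups alone, with the covariates and without the bulb-high libraries, 3 higher without the 5 striatal-high libraries, and 11 lower without the bulb-high libraries. All calls there were 2244 with the groups alone, 1346 with the covariates and 1607 without the bulb-high libraries. For lithium in WT pups, the groups alone called 1 gene lower, Hmgcs1, and 1 higher, Apoe, and all calls were 402 with DESeq2, 617 with the groups alone, 524 with the covariates, 443 without the striatal-high and 446 without the bulb-high libraries. For lithium in HT pups the genes called lower numbered 2 with DESeq2 (Mvk and Idi1), with the covariates (Mvk and Hmgcs1) and with quantile scaling, where they were Hmgcs1 and Srebf2 and Mvk was lost, 0 with the groups alone or without the striatal-high libraries, and 3 without the bulb-high libraries. All calls there were 705 with DESeq2, 188 with the groups alone, 114 without the striatal-high and 851 without the bulb-high libraries. For the covariates and quantile scaling they are not given here, so those counts cannot be set beside those of all genes. HT against WT under vehicle gave 4 calls over the whole table with DESeq2, 2 with quantile scaling, 1 with a mean of at least 200 and 7 without the bulb-high libraries. The covariates were planned, and leaving out the striatal-high or bulb-high libraries was chosen after seeing the data. The causes of these changes were not tested.

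Leaving out 1 library at a time gave 8 to 14 lower, 1 to 3 higher and 1026 to 3571 calls in all in WT females, with 3 higher without WT fluoxetine female 1. It gave 17 to 21 lower, 1 higher and 3514 to 5481 calls in HT pups under fluoxetine. In lithium WT pups it gave 111 to 315 calls in all, with 144 without WT lithium female 3, 173 without WT vehicle female 1, 134 without female 4, 148 without male 1 and 111 without male 5. In lithium HT pups it gave 0 to 2 lower and 177 to 721 calls in all, and under vehicle the genotype gave 0 to 3. Of the called genes 9 of 15 in WT females and 18 of 21 in HT pups under fluoxetine kept their call throughout; Srebf2, Idi1, Cyp51, Sc5d, Fdft1 and Insig1 in the first and Lss, Mvk and Npc2 in the second did not.

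Over 319 pairs of libraries with the same replicate number the median correlation of deviations was 0.02, from -0.47 to 0.61. It was -0.01 for other numbers, and 23.5% of the same-numbered pairs were over 0.1. A median over all groups cannot show whether numbers pair libraries within 1 genotype and drug. HT vehicle female 3 and male 3 had similar microglia (2.37 and 2.73) and striatal (2.32 and 2.03) levels, but not red cell levels (0.63 and -0.94). Whether they are paired was not tested. With the replicate block the cholesterol calls lower and higher were 0 and 0 in WT males, 14 and 1 in WT females, 20 and 1 in HT pups under fluoxetine, 0 and 0 for lithium in WT, 1 and 0 for lithium in HT and 0 and 0 for genotype, where the block gave 3 calls over the whole table.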
